A study of Mus musculus with 2 samples.

Results

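The genes described here are Orm2, Orm3, Lcn2, Saa3, Socs3, S100a8, S100a9 and Csf3r, which encode acute phase and neutrophil-associated proteins and a regulator of cytokine signalling. They were chosen by name, from an earlier look at the same levels and differences given below, and each had exactly 1 row with that single gene symbol, so 8 of 8 genes were found among 1750 named genes. Because the differences themselves chose the genes, the values are a description and support no claim about how such genes behave as a class. Csf3r, at 0.61 on the log2 scale, lay nearest to the 1.5-fold cutoff (0.585) that the deposited table applies.

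Liver RNA was measured in 2 pools, 1 on each array. Both pools came from wild-type C57BL/6J mice, an inbred laboratory strain, aged 6 to 10 weeks. All mice had jugular vein surgery on day 1 and saline through the catheter from day 2. From day 3 the PN mice received parenteral nutrition, a nutrient solution infused into a vein, without food in the cage, whereas the saline mice stayed on saline and could eat. Livers were taken on day 11, after 8 days of either infusion, and RNA of 3 mice per group was pooled. The nutrient infusion and the lack of food came together and cannot be told apart, the catheter and surgery were common to both pools, and the labels used here give no sex. With 1 array per pool there is no replicate check, no error and no test for any difference below; each compares these pools only.

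The acute phase response is the change in plasma protein output of the liver during infection or injury. Cytokines, mainly interleukin-6 and interleukin-1, reach hepatocytes and raise genes such as the serum amyloids, the orosomucoids and lipocalin-2 through the transcription factors STAT3, C/EBP and NF-kB, and Socs3 is induced by the same cytokines and shuts their receptors off. Neutrophils are short-lived white blood cells that develop under G-CSF, whose receptor is encoded by Csf3r, and carry large amounts of calprotectin, the S100A8 and S100A9 dimer. Liver tissue RNA holds RNA of hepatocytes and of resident and passing blood cells together.

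The deposited table had 5082 rows and was limited by its authors to rows that differ by at least 1.5-fold. The smallest absolute difference found in it was 0.585, and the median absolute difference over all named genes was 0.73. Where the genes of a list lie in the same direction, the size of their median is thus largely set by the cutoff. Values are RMA levels (each probe set's probes corrected for background, normalized and condensed into 1 value) on the log2 scale, with medians of 4.37 (saline) and 4.36 (PN). A gene without a named value here may have differed by less, may share its row with other symbols or may carry no name in the annotation. Of 22 hepatocyte markers only G6pc, glucose-6-phosphatase, had a named value (9.22 in saline, 10.4 in PN), so the hepatocyte identity of the tissue could not be checked from Alb, Apoa1 or Hnf4a, which had none. As a measure of dim signal, 133 chemosensory receptor genes, which liver is not known to use, were taken from the same table: their higher level had a median of 3.26 and a 95th percentile of 5.03, and their absolute difference a 95th percentile of 1.11. These receptor rows had passed the same cutoff, so that figure describes differences of dim rows that were kept, not of all dim rows.

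The 8 genes were divided in direction. The plasma protein genes Orm2, Orm3 and Lcn2 were lower in the PN pool, and Saa3, Socs3, S100a8, S100a9 and Csf3r were higher. Thus 5 of 8 genes were higher, where 50.2% of all named genes were, and 3 of 8 lower, where 49.8% of named genes were. At least 2-fold higher were 4 genes (Saa3, Socs3, S100a8 and S100a9), and at least 2-fold lower were 2 (Orm2 and Orm3). Over all named genes, 7.6% were at least 2-fold higher and 7.2% at least 2-fold lower. Since the same contrast chose the genes, nothing is read from these shares. In bulk RNA, fewer cells of a type and less RNA per cell cannot be told apart.

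**Figure D1:**
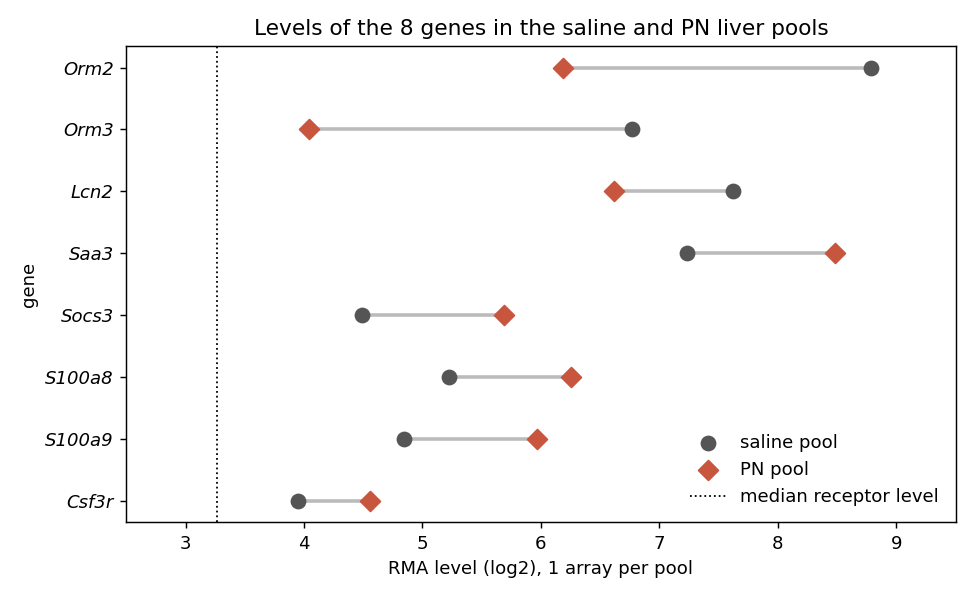
RMA levels (log2, horizontal axis) of the 8 genes with saline (grey circles) and with PN (red diamonds), 1 array each, with the median higher level of chemosensory receptor genes (3.26) as a dotted line. Orm2, Orm3 and Lcn2 move to the left in PN and the other 5 genes to the right; levels of different genes come from different probe sets and are not comparable with each other.

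Among the plasma proteins, Orm2 and Orm3 showed the largest differences of the 8 genes. Both encode orosomucoid (alpha-1-acid glycoprotein), a hepatocyte-made lipocalin that binds drugs and lipids in plasma. The log2 level of Orm2 was 8.79 with saline and 6.18 with PN, and the PN level was lower by 6.07-fold (-2.60 on the log2 scale). Orm3 had 6.77 in saline and 4.05 in PN, a difference of -2.72, or 6.61-fold lower. The PN level of Orm3 lay above the receptor median of 3.26 but under the receptor 95th percentile of 5.03, so its fold depends on how dim signal is treated. With levels under 5.03 raised to it, the difference of Orm3 was -1.74.

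Ordered from the most negative difference, Orm3 was number 3 and Orm2 number 5 of the 1750 named genes. Within the 438 named genes of the highest level quartile, 2 had a larger decrease than Orm3 and 4 a larger decrease than Orm2. The differences of Orm2 and Orm3 lay 0.12 apart. These genes are close paralogs, and probe sets of paralogs can share target sequence, so they may not be independent measurements. Orm1, the third mouse orosomucoid gene, had no named value.

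Orm2 and Orm3 lie side by side, and the 250 bases before their start sites are shown because the genes moved together. In the RefSeq promoter table (build GRCm38.p6), the windows are chr4:63362199-63362448 for Orm2 and chr4:63355908-63356157 for Orm3, both on the plus strand. Sequences run 5′ to 3′ and capitals mark matches to the C/EBP core TTGCNNAA or its reverse TTNNGCAA.
Orm2: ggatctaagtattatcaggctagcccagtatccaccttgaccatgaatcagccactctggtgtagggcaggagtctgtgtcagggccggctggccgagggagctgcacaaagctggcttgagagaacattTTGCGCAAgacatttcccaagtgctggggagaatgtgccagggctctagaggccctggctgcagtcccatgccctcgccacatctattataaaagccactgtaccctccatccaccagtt
Orm3: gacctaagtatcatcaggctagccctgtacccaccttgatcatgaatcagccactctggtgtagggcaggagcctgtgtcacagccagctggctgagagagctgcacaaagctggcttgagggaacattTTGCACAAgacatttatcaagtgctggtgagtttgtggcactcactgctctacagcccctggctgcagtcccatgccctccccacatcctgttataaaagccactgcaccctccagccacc
In a global alignment of these windows, 219 of 255 columns were identical (85.9%). The C/EBP match TTGCGCAA of Orm2 began 120 bases before the start and the match TTGCACAA of Orm3 121 bases before it.

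Lcn2 encodes lipocalin-2, which withholds iron from bacteria by binding their siderophores and is made by hepatocytes in the acute phase as well as stored in neutrophil granules. Its level was 7.62 with saline and 6.62 with PN, a difference of -0.999 (1.999-fold lower), just short of 2-fold. That decrease was smaller than the decrease of Orm2 by 1.60 on the log2 scale, and in its level quartile 113 of 438 named genes had a larger absolute difference. It lay under 1.11, the receptor 95th percentile of absolute difference, although both levels of Lcn2 were above the receptor 95th percentile of level.

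Other lipocalin genes with a value were also lower. Of 33 lipocalin family genes listed, 5 had a named value and 5 were lower, with a median of -1.54, where 49.8% of all named genes were lower. The ones outside the chosen genes were major urinary protein genes, which carry pheromones into mouse urine. Mup21 was 8.51 in saline and 6.98 in PN (2.90-fold lower), and Mup6 was 3.66 in saline and 2.45 in PN, the latter under the receptor median. A row shared by Mup10, Mup11, Mup22 and Mup18 had 8.80 in saline and 8.20 in PN. Mup genes are near-identical copies, so which of them these rows measured is uncertain.

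Saa3 went the other way from its relatives of the serum amyloid A family. SAA3 is made by macrophages, fat cells and epithelia as well as by inflamed liver, whereas Saa1 and Saa2 encode the circulating acute phase amyloids of hepatocytes. Saa3 stood at 7.23 with saline and 8.48 with PN, a difference of 1.25, or 2.37-fold higher. It ranked number 60 from the highest difference among named genes. Saa2 was 9.99 in saline and 9.05 in PN, a difference of -0.94 (1.91-fold lower). A second row, shared by Saa1 and Saa2, was 10.97 in saline and 9.25 in PN, a difference of -1.73 (3.31-fold lower). Saa3 thus differed from Saa2 by 2.18 and from the shared row by 2.97 on the log2 scale; rows of opposite direction in this table lie at least 1.17 apart by construction. The rows that name Saa2 may measure the same transcripts and are not independent, and Saa4 had no named value.

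The windows of 250 bases before the start are shown for Saa3 and Saa2, genes of 1 family with opposite directions. They are chr7:46715677-46715926 on the minus strand for Saa3 and chr7:46751583-46751832 on the plus strand for Saa2, in GRCm38.p6 from RefSeq, with C/EBP matches in capitals as above.
Saa3: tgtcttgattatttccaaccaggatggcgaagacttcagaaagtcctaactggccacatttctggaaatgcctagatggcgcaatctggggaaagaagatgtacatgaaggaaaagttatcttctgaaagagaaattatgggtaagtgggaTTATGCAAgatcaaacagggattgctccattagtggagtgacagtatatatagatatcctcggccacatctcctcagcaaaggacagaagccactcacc
Saa2: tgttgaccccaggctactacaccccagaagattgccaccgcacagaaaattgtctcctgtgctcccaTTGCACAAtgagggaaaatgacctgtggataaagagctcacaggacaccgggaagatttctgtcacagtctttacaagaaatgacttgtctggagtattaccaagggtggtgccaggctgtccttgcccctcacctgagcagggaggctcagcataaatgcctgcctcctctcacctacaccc
These windows matched at 152 of 290 aligned columns (52.4%), while those of Saa1 and Saa2 matched at 238 of 251 (94.8%). The match in Saa3, TTATGCAA, lies on the reverse strand and begins 99 bases before the start; the match in Saa2, TTGCACAA, begins 183 bases before it.

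**Figure D2:**
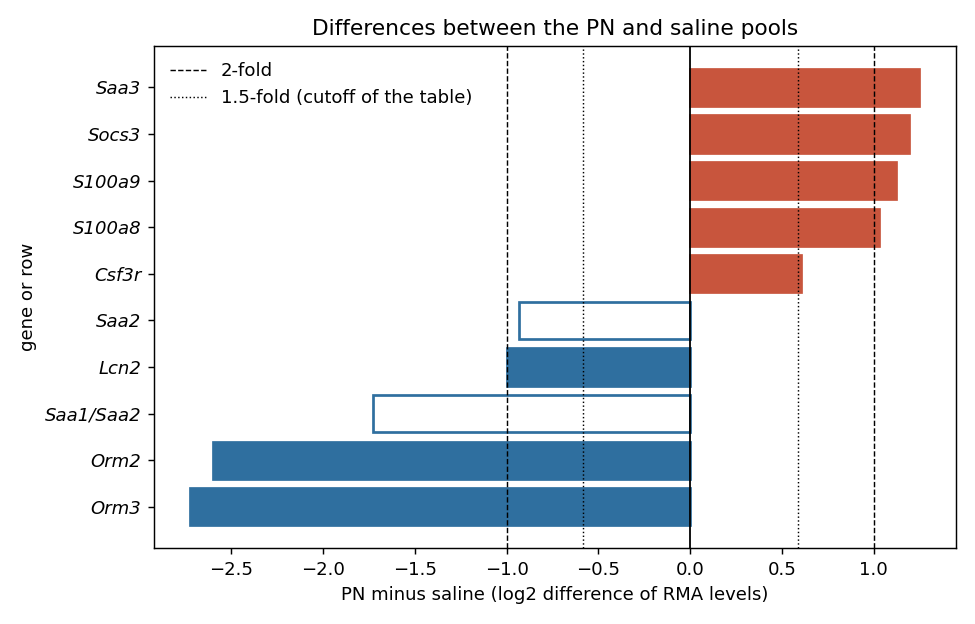
Difference between the PN and the saline pool (log2, horizontal axis) for the 8 genes (filled bars) and for the Saa2 row and the row shared by Saa1 and Saa2 (open bars); dashed lines mark 2-fold and dotted lines the 1.5-fold cutoff. Saa3 extends to 1.25 while Saa2 and the shared row extend to -0.94 and -1.73.

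The same C/EBP core occurred before the start of 5 of the 8 genes (Orm2, Orm3, Lcn2, Saa3 and S100a9), in both directions of change, and in 9.56% of 32851 promoters of the RefSeq table. The windows of Orm2 and Orm3 matched at 85.9% of aligned columns, so their matches are not independent. The 8 genes were chosen by name, so nothing is read from their count beside that share. A STAT motif, TTCNNNGAA, which reads the same on both strands, was found in Socs3 alone among the 8, as TTCTTAGAA beginning 154 bases before the start, and in 7.02% of all promoters. The NF-kB consensus matched in Csf3r alone among the 8 and in 7.25% of all promoters. Both strands were searched, and within the 8 windows no match of one motif overlapped another. A match is only a match of letters in this window, and no match says nothing about a factor.

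Socs3, the feedback inhibitor that binds the interleukin-6 receptor chain gp130 and its kinases, had a level of 4.49 with saline and 5.69 with PN, a difference of 1.20, or 2.29-fold higher. In its level quartile 10 of 437 named genes had a larger increase. Its saline level lay under the receptor 95th percentile of 5.03, and with levels under 5.03 raised to it the difference was 0.66. Its difference was close in size to that of Saa3 (0.05 apart) and opposite to that of the orosomucoids. Socs2, a feedback inhibitor of growth hormone signalling, was the other member of its family of 8 with a named value. Its rows were 5.05 in saline and 5.76 in PN, and 5.19 in saline and 6.56 in PN, so both were higher, by 0.71 and 1.37.

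Few other genes of interleukin-6 signalling had a value. Of 34 listed genes, 3 had one, with 2 higher and 1 lower. Besides Socs3 these were Myc, a growth transcription factor, at 5.68 in saline and 6.91 in PN (2.34-fold higher), and Il6 itself. Il6 had 2.94 in saline and 2.31 in PN, both under the receptor median, so no fold is given. The receptor genes Il6ra and Il6st and the transcription factor genes Stat3, Cebpb and Cebpd had no named value. Of 34 genes of interleukin-1, TNF and toll-like receptor signalling, 5 had a value and 5 were higher, with a median of 0.69, where 50.2% of all named genes were higher. Other toll-like receptor genes, which were not on the list and are named after their values were seen, lay in both directions: Tlr8 at 1.09 and Tlr13 at 0.73 were higher, and Tlr3 at -0.69 and Tlr6 at -0.62 were lower. The listed genes were Vcam1, an endothelial adhesion molecule (2.11-fold), Rel, an NF-kB subunit (1.70-fold), Tnfaip3, an NF-kB feedback inhibitor (1.62-fold), Tlr2, a receptor for bacterial lipoproteins (1.59-fold), and Ccl2, a monocyte chemokine (1.53-fold). Tlr2 was also the only one of 12 receptor or partner genes of lipocalin-2 and serum amyloid A with a named value.

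Acute phase genes with a value lay in both directions. Of 42 listed genes 11 had a named value, with 5 higher, 6 lower and a median of -0.76. Without the chosen genes, 6 of 37 had one, with 3 higher and 3 lower and a median of -0.01, a split close to that over all named genes (50.2% higher and 49.8% lower). The median over all named genes was 0.59, which is only the edge of the gap that the cutoff leaves around 0. The lower ones were Saa2, as above, Hamp, the iron hormone hepcidin, at 11.87 in saline and 10.96 in PN (1.88-fold), and Serpina1e, an alpha-1-antitrypsin gene, at 10.64 and 9.87 (1.70-fold). The higher ones were Hamp2 at 7.30 and 8.23 (1.91-fold), Apcs, which encodes serum amyloid P, the main pentraxin of mouse plasma, at 8.54 and 9.36 (1.77-fold), and Steap4, a metalloreductase, at 8.72 and 9.46 (1.67-fold). Hamp and Hamp2 are close copies with opposite directions here, so their values are uncertain. Haptoglobin (Hp), the fibrinogen genes (Fga, Fgb and Fgg), Crp, Lbp and Serpina3n were among the 31 listed genes with no named value.

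The listed complement genes were lower where they had a value. Of 37 complement and coagulation genes, 5 had one and 5 were lower, with a median of -0.71, where 49.8% of all named genes were lower. C6, a part of the membrane attack complex, was 9.35 in saline and 8.13 in PN (2.34-fold lower). C4a was 1.66-fold, C2 1.64-fold, C8b 1.63-fold and C8a 1.51-fold lower. Other genes of complement and coagulation, which were not on this list and are named after their values were seen, lay in both directions. C1qb at 0.72, C1rb at 0.74 and Fcna at 0.79 were higher, and F3 at -1.10 was lower. Of 15 negative acute phase proteins, which fall in inflammation, Serpina6, the carrier of corticosteroids in plasma, alone had a value and was 9.93 in saline and 10.61 in PN (1.59-fold higher). Of 15 genes of the glucocorticoid response, which strengthens the hepatic acute phase, 5 had a value. Sgk1, a kinase (2.07-fold), Per1, a clock gene (1.92-fold), and Dusp1, a phosphatase of MAP kinases (1.58-fold), were higher, while Cdkn1a, a cell cycle inhibitor (2.91-fold), and Fam107a (1.78-fold) were lower.

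The calprotectin genes were higher in the PN pool by nearly equal amounts. S100A8 and S100A9 form a calcium- and zinc-binding complex that neutrophils and monocytes hold in their cytosol and release at sites of inflammation. S100a8 was 5.22 with saline and 6.25 with PN, a difference of 1.03 (2.04-fold higher). S100a9 was 4.84 in saline and 5.97 in PN, a difference of 1.12 (2.18-fold higher). The saline level of S100a9 lay under the receptor 95th percentile of 5.03, and with levels under 5.03 raised to it the difference was 0.94, under 2-fold and under 1.11. The differences lay 0.09 apart, and the windows of 250 bases before their starts matched at 49.8% of aligned columns. The difference of S100a9 lay just above, and that of S100a8 under, 1.11, the receptor 95th percentile. In their level quartile of 437 named genes, 28 had a larger increase than S100a8 and 12 a larger increase than S100a9.

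The other listed S100 genes with a value were lower. Of 19 genes on that list, 4 had a value. S100a10, the annexin A2 partner p11, was 10.45 in saline and 9.79 in PN (1.59-fold lower), and S100a2 was 4.22 in saline and 3.58 in PN (1.56-fold lower). A row of the pseudogene S100a11-ps, which was not on the list, was 4.61 in saline and 5.50 in PN (1.86-fold higher).

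Csf3r had the smallest difference of the 8 genes. Its level was 3.95 with saline and 4.56 with PN, a difference of 0.61 (1.52-fold higher). Both levels lay under the receptor 95th percentile of 5.03, and 395 of the 437 named genes in its level quartile had a larger absolute difference. Signal of this size cannot be separated from dim signal in this table. Of 15 genes of colony-stimulating factors and their receptors, 3 had a value and 3 were higher, where 50.2% of all named genes were. Besides Csf3r, Csf2rb, the shared beta chain of the GM-CSF, IL-3 and IL-5 receptors, was 4.29 in saline and 5.32 in PN (2.05-fold). Flt3, a receptor of blood progenitors and dendritic cells, was 3.77 and 4.46 (1.61-fold).

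**Figure D3:**
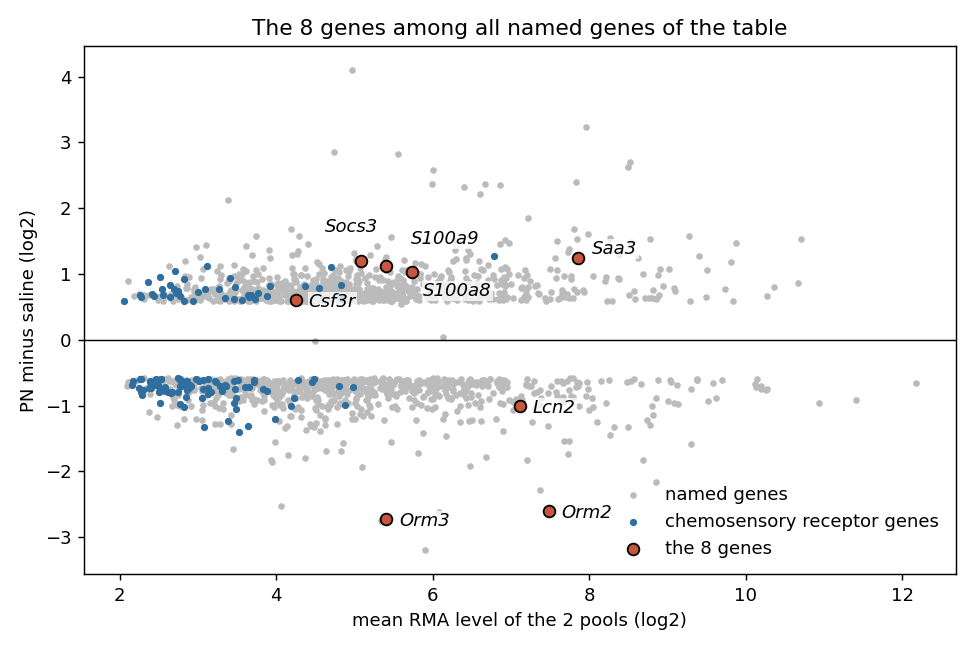
Difference between the pools (log2, vertical axis) against the mean level of the pools (log2, horizontal axis) for 1750 named genes (grey), 133 chemosensory receptor genes (blue) and the 8 genes (red, labelled). Orm3 at -2.72 and Orm2 at -2.60 lie at the lower edge of the cloud, while Csf3r at 0.61 lies in its densest part. The nearly empty band around 0 is the range that the 1.5-fold cutoff removed from the rows. The few genes inside it, such as Gm12718 at 0.04, are averages of rows.

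Neutrophil markers with a value were mostly higher, as were the calprotectin genes among them. Of 42 neutrophil markers 10 had a named value, and 9 were higher, the exception being Lcn2. The median of the 10 was 0.82, and the median absolute difference over all named genes was 0.73. At least 2-fold higher were 3 of the 10. Without the chosen genes, 6 of 38 had one and 6 were higher, with the same median of 0.82, where 50.2% of all named genes were higher; 1 of the 6, Hdc, was at least 2-fold higher, where 7.6% of named genes were. These were Hdc, histidine decarboxylase (2.08-fold), Cybb and Cyba, the membrane subunits of the phagocyte NADPH oxidase (1.91-fold and 1.82-fold), Cd177, a neutrophil surface protein (1.72-fold), Itgb2, the common beta chain of leukocyte integrins (1.54-fold), and Fcgr4, an IgG receptor (1.53-fold). Their levels summed on the linear scale were 298 with saline and 523 with PN; since each of these rows had to pass the 1.5-fold cutoff, the distance between the sums is largely set by it. The saline levels of Hdc (4.36) and Cd177 (4.59) lay under the receptor 95th percentile of 5.03, so their folds depend on how dim signal is treated. Cybb, Cyba, Itgb2 and Fcgr4 are expressed by monocytes and macrophages too. Other listed neutrophil markers, among them Ly6g, Mpo, Elane, Ltf, Camp, Ngp, Mmp8, Retnlg and Cxcr2, had no named value.

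Macrophage markers were higher as well. Of 34 monocyte and macrophage markers 13 had a value, 12 were higher and Id3 was lower (-0.61), with a median of 0.73 and a summed linear level of 1940 in saline and 3145 in PN, to which the same limit applies. Over all named genes 50.2% were higher and 7.6% at least 2-fold higher. At least 2-fold higher were 5 of the 13 markers. The highest were Marco, a scavenger receptor (2.36 on the log2 scale), Clec7a, the beta-glucan receptor (1.56), and Gpnmb (1.09). Saline levels of Marco (4.81), Clec7a (4.69) and Gpnmb (4.40) lay under the receptor 95th percentile of 5.03. The differences of these 3 genes thus depend on how dim signal is treated. The smallest increases were those of Clec4f, a Kupffer cell lectin (0.62), and Lyz2, lysozyme (0.62). Calprotectin and Saa3 are also expressed by monocytes and macrophages, and the part that each cell type has in their difference was not tested. Among 24 markers of T, B and NK cells, 7 had a value and 6 were higher, where 50.2% of all named genes were. These ran from Ighm (0.59) and Klrb1c (0.60) to Nkg7 (0.66), Cd3e (0.97) and Ccl5 (1.07), whereas Il7r was lower (-1.20). Both levels of Ighm, Klrb1c, Cd3e and Il7r lay under the receptor 95th percentile of 5.03. With only genes of at least the median higher level of named genes (5.18) kept, 2 were higher and 0 lower. Of 17 erythroid markers 3 had a value, Tfrc higher and Car1 and Klf1 lower. Of 10 platelet markers Pf4 alone had one (1.52-fold higher), and none of 15 endothelial markers did. Rows that such markers share with other genes were lower, at -0.73 for platelet Gp1bb with Septin5 and -0.79 for erythroid Alas2 with Apex2. Among genes that guide neutrophils, 2 of 19 had a value. Ccl3, a chemokine for leukocytes, was 3.60 in saline and 4.95 in PN (2.55-fold higher), both under 5.03. Selplg, the ligand of selectins, was 1.67-fold higher. None of 10 transcription factors of granulocyte development had a named value.

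**Figure D4:**
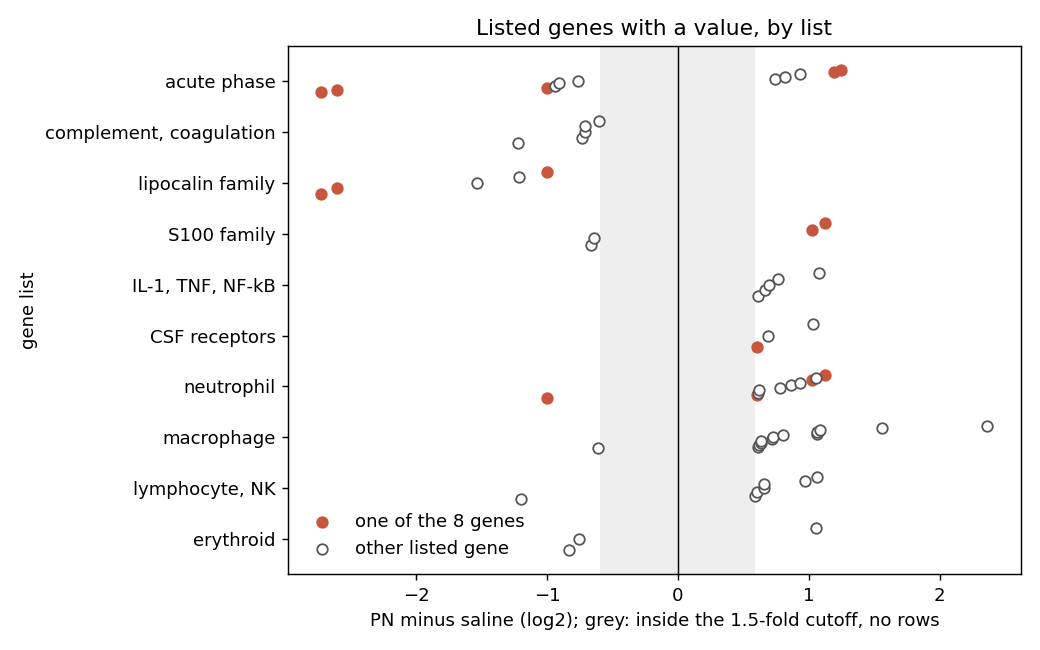
Differences between the pools (log2, horizontal axis) of all listed genes with a named value, by gene list; red points are among the 8 genes, open points are other listed genes, and the grey band is the range the 1.5-fold cutoff removed. The genes of the lipocalin and complement lists lie on the left and those of the acute phase list on both sides. Listed neutrophil and macrophage markers lie on the right except Lcn2 and Id3. C1qb, a complement gene, is plotted there among the macrophage markers.

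Set side by side by role, the plasma protein genes had a median of -2.60 (range -2.72 to -0.999), calprotectin a median of 1.08 (1.03 to 1.12), Saa3 1.25, Socs3 1.20 and Csf3r 0.61. The calprotectin median lay 3.68 above the plasma protein median. Within the livers of the PN pool the ratio of S100a8 to Orm2 signal was thus 12.4-fold that in the saline pool, and the ratio of S100a9 to Lcn2 signal 4.35-fold. A shift common to a whole array cancels in such ratios. These genes were chosen on the same contrast, and rows of opposite direction lie at least 1.17 apart (2.25-fold) by construction. The sizes of these gaps and ratios are therefore a description only. Lcn2, which both hepatocytes and neutrophils make, was on the side of the orosomucoids, and Saa3 on the side of calprotectin.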

How the data were processed

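Liver RNA was labelled with biotin and measured on 2 arrays, 1 pool of 3 mice each; groups follow the mouse group in the labels. The deposited values are log2 levels made by the authors with RMA in Affymetrix Expression Console 1.4.0.38, per the submitters' processing notes; which arrays were normalized together, and the genome build, is not given in the sources used here. A 1.5-fold cutoff on the rows is stated in the series' design text. The platform annotation gave 1 symbol for 1779 of 5082 rows, several for 161 and no symbol for 3142; 1766 of the 1779 matched RefSeq by Entrez identifier. Rows of 1 gene were averaged, which gave 1750 named genes. Rows with several symbols are given only for relatives of the chosen genes, lipocalins included, and for platelet and erythroid markers. The Mup, platelet and erythroid rows of this kind were not part of the planned naming.

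The difference is PN minus saline on the log2 scale, with no pseudocount, and a fold is 2 to the power of its size. With 1 array per group no test was run, and the number of arrays limits the precision. A gene was counted as called past 2-fold. The genes, the 20 gene lists and the alternatives were chosen with earlier results of these data known. Named are the 8 genes, every gene with a value in lists of up to 6 such genes, and otherwise the 3 highest and 3 lowest; in the longer lists of acute phase genes and neutrophil markers, the 6 genes with a value beyond the chosen ones are all named, a choice made after their values were seen, as was the naming of markers without a value. Calculations used Python 3.11.15 with pandas 2.3.3 and numpy 2.4.6 and were tested on simulated data; promoters were aligned with Biopython 1.88 (match 1, mismatch -1, gap opening -2, gap extension -0.5).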

Additional observations from a re-analysis of the deposited data

How the results depend on the processing

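No paired analysis was possible because each group has 1 array. A value is taken as moved when it changed by more than 1.5 times. None of the 8 differences changed direction under any alternative run, but most settings could not have reversed one. Raising dim levels cannot change a sign, and taking the brightest row changed nothing because each gene had 1 row. The common shifts of the centring and one-median settings were too small to reverse any of the 8. The difference of Csf3r went to 0 when levels under the receptor 95th percentile were raised to it. Under that setting Socs3 was at 0.66, S100a9 at 0.94, the calprotectin median at 0.98 and Orm3 at -1.74. Raising levels to the receptor median, mapping PN to the saline quantiles, or, added after seeing the data, setting both columns to one median moved no difference past 1.5 times. Centring on the median difference of all rows (-0.60) gave 1.80 for Socs3, 1.68 for the calprotectin median, 1.21 for Csf3r and -0.40 for Lcn2; that median lies at the edge of the gap left by the cutoff around 0. With the row of Saa1 and Saa2 counted, the plasma protein median was -2.16. Past a 2-fold cutoff, 2 acute phase genes were higher and 2 lower, and 3 neutrophil markers were higher and 0 lower. Without the 8 genes, an alternative added after seeing the data, 3 acute phase genes were higher and 3 lower, and 6 neutrophil markers were higher and 0 lower. Of all 160 list counts under the alternatives, 34 moved. Leaving out a replicate was not possible with 1 array per group. Among the 8 genes, dim signal limits Csf3r, the saline levels of Socs3 and S100a9 and the PN level of Orm3. Other genes given with a fold, such as Ccl3, Flt3, S100a2 and Fam107a, had both levels under the receptor 95th percentile too.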
